A study of Mus musculus with 4 samples.

Results

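Kupffer cells, the macrophages that live in the sinusoids of the liver, were followed through 32 of their genes among the 37315 gene rows measured. The 32 genes are surface, scavenger, lysosomal and adhesion genes of macrophages and other leukocytes. They were chosen by name as macrophage and leukocyte genes, with their log2 fold changes between mutant and wild type in these same libraries already known. Differences between the groups are therefore given for them as a description, with standard errors and calls but no test of the list. The samples were livers of C57BL/6 mice aged 23 weeks. Of the 4 libraries, 2 were wild type and 2 came from mice with a synonymous Foxo1 mutation, which alters a codon but not the amino acid it encodes. The position of the mutation, whether it was homozygous, the sex and feeding state of the mice and any pooling of animals are left unstated by the labels, which name no treatment. Nothing in the labels says that the libraries came from separate animals, so the spread between them may be technical.

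Kupffer cells take up bacteria, ageing red cells and debris from portal blood through scavenger and complement receptors, digest them in lysosomes and return the iron to the plasma. Their identity depends on signalling from the receptor for macrophage colony-stimulating factor and on transcription factors that include PU.1 and LXR alpha. Others of the 32, such as Ptprc, are shared by many leukocytes, so that in whole liver their transcripts may come from Kupffer cells, from monocytes or from lymphocytes. In RNA of whole tissue, more cells of a type and more RNA per cell cannot be told apart.

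Total counts ranged from 73551737 to 95908652 per library. Levels are in CPM, that is, counts relative to the library total after TMM scaling. Albumin, the leading hepatocyte transcript, took 7.32% and 7.93% of all counts in the wild type and 6.74% and 6.48% in the mutant libraries. Foxo1 was at 44.0 and 54.8 CPM in the wild type and at 33.6 and 53.4 CPM in the mutant libraries, so its groups overlapped; a gene count does not show a synonymous change and so does not check the labels. The 10 genes fixed as markers of macrophages and Kupffer cells, among them Clec4f, Adgre1, Timd4, Csf1r and C1qa, were detected in all 4 libraries. Every one of the 32 members passed the filter on low counts, as did 14657 genes in all.

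The promoters of 22 of the 32 genes were matched by symbol in the RefSeq promoter windows of build GRCm38.p6, which run from 250 bases before to 50 bases after a start site and gave 25 windows. No window was matched for Adgre1, Msr1, Slc40a1, Slc15a3, Cd14, Sirpa, Adgre5, Sla, Itgal and Cd52. Of the member windows, 9 (36.0%) held AGGAAGT, the core bound by PU.1 and other ETS factors, on either strand (both windows of Ptprc included), against 9.35% of all 32851 windows. GAAANNGAA, a paired site of interferon regulatory factors, was in 4 (16.0% against 8.56%), and the AP-1 site TGAGTCA in 3 (12.0% against 5.2%). TATAAA was in 3 windows (12.0% against 13.6%) and CACGTG, the E-box read by TFEB and other factors, in 0 of 25 (7.15% of all windows). The windows of macrophage genes were also poorer in CpG. Their median observed over expected CpG ratio was 0.205 against 0.384 over all windows. Of the 25, 1 (4.0%), a window of Coro1a, exceeded 0.6, against 35.8% of all windows. These are matches of letters in short windows, and they show neither binding nor control. The windows of Ptprc overlap and share sequence.

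Within the 150 bases before a start, 5 members held the ETS core: the lysozyme gene Lyz2, the folate receptor gene Folr2, the inhibitory receptor gene Pirb, the leukocyte phosphatase gene Ptprc and the transcription factor gene Spic. Those stretches are shown because they hold this core and because PU.1 is a lineage factor of macrophages. The 5 genes were higher in both mutant libraries, but so were 28 members in all, so this does not set them apart. The stretches are written 5′ to 3′ along the gene, with capitals for AGGAAGT or its reverse complement. All 5 genes are on the minus strand. The start at the right end is the one RefSeq gives in GRCm38.p6.
Lyz2 chr10:117282273-117282422: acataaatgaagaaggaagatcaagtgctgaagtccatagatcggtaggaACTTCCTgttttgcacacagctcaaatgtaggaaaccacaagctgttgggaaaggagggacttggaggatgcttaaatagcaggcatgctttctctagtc
Folr2 chr7:101857191-101857340: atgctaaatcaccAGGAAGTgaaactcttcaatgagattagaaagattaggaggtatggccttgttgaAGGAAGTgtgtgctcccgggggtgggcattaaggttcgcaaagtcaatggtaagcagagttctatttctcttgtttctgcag
Pirb chr7:3720383-3720532: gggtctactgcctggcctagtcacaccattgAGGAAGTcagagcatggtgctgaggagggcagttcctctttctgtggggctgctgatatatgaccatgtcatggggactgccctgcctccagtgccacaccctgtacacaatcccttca
Ptprc chr1:138175306-138175455: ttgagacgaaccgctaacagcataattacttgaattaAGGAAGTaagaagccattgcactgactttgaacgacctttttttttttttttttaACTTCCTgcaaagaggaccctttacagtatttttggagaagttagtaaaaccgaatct
Spic chr10:88683024-88683173: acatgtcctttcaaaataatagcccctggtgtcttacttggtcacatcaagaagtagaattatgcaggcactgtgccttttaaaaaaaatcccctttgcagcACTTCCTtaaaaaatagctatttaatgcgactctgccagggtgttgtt
Folr2 and Ptprc carried 2 copies of the ETS core each, and the other 3 genes carried 1. The first base of the core nearest to the start lay 48 bases before it in Spic, 58 in Ptprc, 82 in Folr2, 100 in Lyz2 and 119 in Pirb. No copy overlaps another.

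Across the 32 members, 31 had a higher mean in mutant liver and 1, Gpnmb, a lower one. The median log2 fold change, mutant over wild type, was 0.62 (1.54-fold), with quartiles of 0.51 and 0.78, beside a median of −0.0013 and quartiles of −0.11 and 0.12 over the 14657 genes tested. For 28 members (87.5%) both mutant libraries lay above both wild type libraries, as they did for 17.0% of all tested genes. The log2 fold change was larger in size than both replicate differences for 27 members, where 22.3% of all tested genes had this property; the exceptions were Cd68, Cd163, Aif1, Coro1a and Lgals3. The members' fold changes were known when they were chosen, and nothing is read from these counts. Summed over the 32 genes, the level was 514 and 542 CPM in the wild type and 741 and 823 CPM in the mutant libraries, a ratio of 1.48. Slc40a1, which hepatocytes also express, held the largest part of the sum, and without it, an alternative chosen after seeing the data, the ratio was 1.55. Both mutant sums were above both wild type sums.

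With edgeR and an adjusted p below 0.05 over all genes, 13 of the 32 members (40.6%) were past the threshold, all higher in mutant liver, where 0.28% of all tested genes were called higher and 0.341% called in either direction. Because the members were proposed with this contrast known, nothing is read from that share. DESeq2 called 16 members (0.764% of all genes), among them all 13, and limma-voom called 1, Lyz2 (0.0478% of all genes). With any 1 library left out, edgeR called 0 of the 32, the lone library of a group being assumed to vary like the pair of the other. The shares of all genes called were then 0.0887% and 0.116% when wild type replicate 1 or 2 was dropped, and 0.0205% and 0.102% when mutant replicate 1 or 2 was dropped. At an unadjusted p below 0.05 these fits, in that order, had 22, 24, 26 and 23 members, and the median log2 fold change of the members ran from 0.57 to 0.72. The calls therefore needed all 4 libraries, while 31 members stayed positive in 3 of these fits and 30 without mutant replicate 2.

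**Figure D1:**
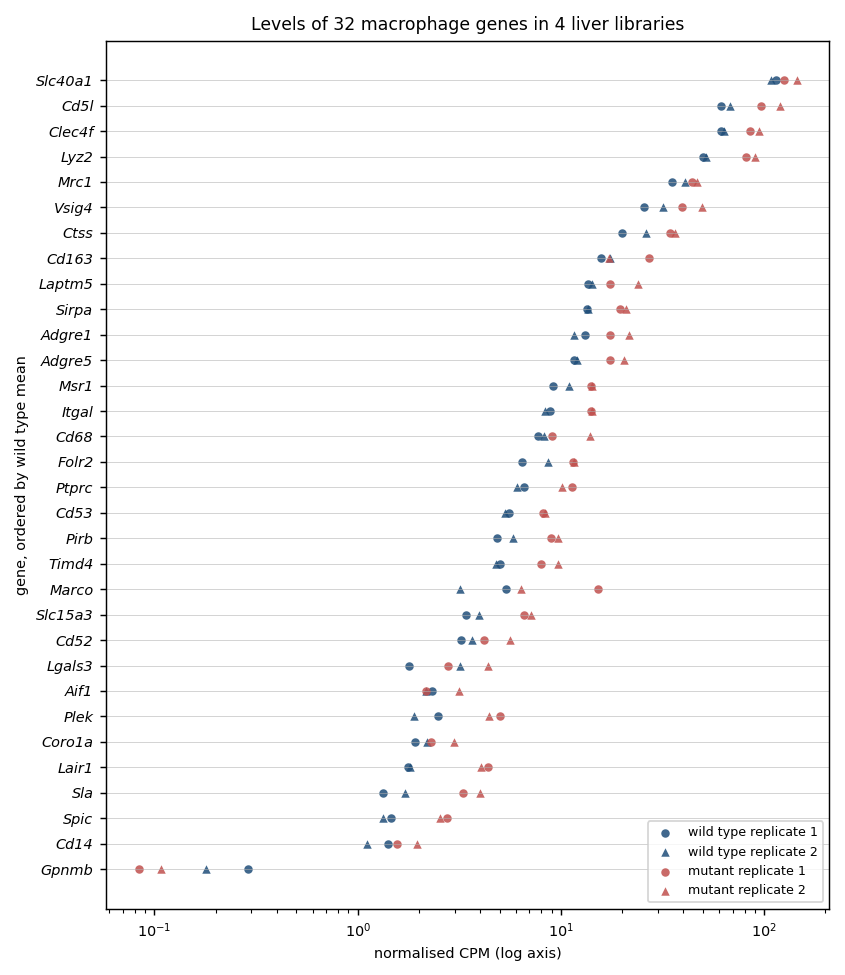
Normalised CPM (log axis) of the 32 genes in each library, with circles for replicate 1 and triangles for replicate 2, blue for wild type and red for mutant. Red points lie to the right of both blue points for 28 genes, the groups overlap for Cd163, Aif1 and Lgals3, and Gpnmb at the bottom is the 1 gene with both red points on the left.

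The 7 genes of Kupffer cell identity were all higher in both mutant libraries, with log2 fold changes of 0.53 to 0.93, and 3 of them, Cd5l, Timd4 and Clec4f, were past the threshold. Among all tested genes 17.0% were higher in both mutant libraries and 0.28% were called higher. Limma-voom called 0 of the 7. Clec4f (ENSMUSG00000014542, chr6:83644542-83656187, minus strand in the GENCODE M21 annotation of mm10) encodes a C-type lectin that in mouse liver marks Kupffer cells. Its level was 60.96 and 63.2 CPM in the wild type and 85.1 and 94.6 CPM in the mutant libraries (log2 fold change, here and below in parentheses, 0.53, SE 0.09). Cd5l, which encodes a secreted scavenger-like protein of tissue macrophages, was at 61.4 and 67.8 CPM and 96.2 and 119 CPM in the same order (0.74, SE 0.11). Timd4 encodes a receptor for phosphatidylserine on dying cells and is a marker of long-lived resident Kupffer cells. It was at 5.01 and 4.80 CPM against 7.99 and 9.67 CPM (0.85, SE 0.15), so that the lower mutant library was still well above the higher wild type library. Adgre1, the adhesion receptor detected by the classical macrophage antibody, gave 13.1 and 11.6 CPM without and 17.5 and 21.6 CPM with the mutation (0.66, SE 0.13). Vsig4, the complement receptor that captures bacteria from blood, gave 25.5 and 31.6 CPM and 39.5 and 49.2 CPM (0.64, SE 0.14). Both were separated between the groups and neither was past the threshold. Folr2, a folate receptor of resident macrophages, was at 6.40 and 8.59 CPM and 11.4 and 11.5 CPM (0.62, SE 0.15). Its exons overlap Gm10602 on the opposite strand, and the kit used keeps no strand information. Spic, the factor that directs iron-recycling macrophages, was the lowest of the 7, at 1.46 and 1.33 CPM and 2.76 and 2.53 CPM (0.93, SE 0.23), with wild type counts of 121 and 96 reads and mutant counts of 263 and 212.

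Scavenger and pattern receptors were less even, with log2 fold changes of 0.26 to 1.34 and 0 of 5 past the threshold by edgeR, by DESeq2 or by limma-voom (2 at an unadjusted p below 0.05). Marco (ENSMUSG00000026390, chr1:120474538-120505024, minus strand), a collagen-like scavenger receptor for bacteria, was at 5.35 and 3.18 CPM in the wild type and 15.3 and 6.36 CPM in the mutant libraries. Mutant replicate 1 was the highest of the 4 libraries for this gene, and in each group replicate 1 was above replicate 2. The log2 fold change was 1.34 with a wide error (SE 0.67), and it was 0.57 without mutant replicate 1 and 1.83 without mutant replicate 2. Cd163, the receptor for haemoglobin bound to haptoglobin, was at 15.7 and 17.5 CPM and 27.2 and 17.3 CPM (0.42, SE 0.23). Mutant replicate 2 lay between the wild type libraries, and the log2 fold change was only 0.06 without the other mutant library. Msr1, scavenger receptor A for modified lipoproteins, was at 9.10 and 10.9 CPM and 14.1 and 14.1 CPM (0.49, SE 0.13). Mrc1, the mannose receptor, which sinusoidal endothelium also makes, was at 35.2 and 40.8 CPM and 44.1 and 46.6 CPM (0.26, SE 0.10). Its value is the smallest log2 fold change of the 5. Cd14, the co-receptor for lipopolysaccharide, was low in every library, at 1.41 and 1.11 CPM and 1.56 and 1.95 CPM (0.48, SE 0.28), and its mutant libraries were only slightly above the wild type ones.

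All 6 genes of lysosome, granule and iron export had both mutant libraries above both wild type libraries, as did 17.0% of all tested genes. Of the 6, 2 were past the threshold, Lyz2 and Slc15a3, where 0.28% of all tested genes were called higher. Limma-voom called 1 of the 6. Lyz2 (ENSMUSG00000069516, chr10:117277331-117282321, minus strand), the lysozyme of macrophages, was at 49.8 and 51.4 CPM in the wild type and 81.6 and 90.4 CPM in the mutant libraries, with a log2 fold change of 0.77 (SE 0.09, 1.70-fold). It was the member called by every tool with all 4 libraries, although its close paralog Lyz1 could share reads. Slc15a3, a lysosomal transporter of histidine and peptides, was at 3.41 and 3.94 CPM and 6.55 and 7.09 CPM (0.89, SE 0.17). Its exons overlap Tmem132a on the opposite strand over 1541 bases, so its reads could not be assigned by strand. Ctss, a cysteine protease that trims the invariant chain in antigen presentation, was at 19.9 and 26.1 CPM and 34.5 and 36.4 CPM (0.62, SE 0.12). Laptm5, a lysosomal membrane protein of blood cells, was at 13.5 and 14.2 CPM and 17.5 and 23.9 CPM (0.57, SE 0.14). Cd68, a heavily glycosylated lysosomal protein of macrophages, was at 7.74 and 8.25 CPM and 9.03 and 13.9 CPM (0.52, SE 0.19). For Laptm5 and Cd68 mutant replicate 2 was the high library: without it their log2 fold changes were 0.33 and 0.17, and without mutant replicate 1 they were 0.78 and 0.80. Slc40a1, ferroportin, the exporter that returns iron to plasma, was the most abundant member by CPM, at 114 and 108 CPM and 126 and 144 CPM (0.28, SE 0.10), and had one of the smallest differences.

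All 3 inhibitory receptors of myeloid cells were past the threshold, where 0.28% of all tested genes were called higher. DESeq2 also called all 3 and limma-voom 0. The members were chosen with this contrast known, and nothing is read from these calls. Lair1 (ENSMUSG00000055541, chr7:4003402-4063204, minus strand), an inhibitory receptor for collagen, was at 1.76 and 1.80 CPM in the wild type and 4.37 and 4.03 CPM in the mutant libraries, a 2.36-fold difference (log2 fold change 1.24, SE 0.20). The libraries of each group were close to each other, and the log2 fold change ran only from 1.18 to 1.29 with any library left out. Sirpa, which receives the inhibitory signal of CD47 on red cells, was at 13.4 and 13.6 CPM and 19.6 and 20.9 CPM (0.59, SE 0.11). Pirb, a receptor for MHC class I, was at 4.83 and 5.80 CPM and 8.88 and 9.62 CPM (0.80, SE 0.15), and its close Pira paralogs could share its reads. Its edgeR adjusted p of 0.0492 was close to the threshold, and it was not past it with upper-quartile scaling. Lair1 and Pirb both lie near the same end of chromosome 7, at 4003402 and 3711409.

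Of 9 pan-leukocyte and adhesion genes, 5 were past the threshold, namely Sla, Plek, Ptprc, Itgal and Adgre5, and 8 had both mutant libraries above both wild type libraries. The shares over all tested genes were 0.28% called higher and 17.0% with both mutant libraries above. Limma-voom called 0 of the 9. Sla (ENSMUSG00000022372, chr15:66780819-66831829, minus strand), an adaptor that dampens antigen receptor signalling, had the largest log2 fold change among members past the threshold, 1.27 (SE 0.23), from 1.33 and 1.70 CPM to 3.30 and 4.004 CPM. Plek, the main protein kinase C substrate of platelets and also made in leukocytes, was at 2.50 and 1.90 CPM and 5.03 and 4.43 CPM (1.10, SE 0.21). Its exons overlap Cnrip1 on the opposite strand. Ptprc, the phosphatase CD45 of all leukocytes, was at 6.55 and 6.05 CPM and 11.4 and 10.1 CPM (0.77, SE 0.14). Itgal, the alpha chain of the integrin LFA-1, which lymphocytes carry as well as macrophages, was at 8.81 and 8.38 CPM and 14 and 14.2 CPM (0.71, SE 0.12). The 2 libraries of each group nearly coincided for this gene. Adgre5, the adhesion receptor CD97, was at 11.5 and 11.97 CPM and 17.3 and 20.4 CPM (0.68, SE 0.12), and its exons overlap Ddx39 on the opposite strand and Mir1668 on the same strand. Cd53, a tetraspanin of leukocytes, was at 5.56 and 5.33 CPM and 8.13 and 8.37 CPM (0.60, SE 0.14). Both groups were tight, yet it was not past the threshold. Cd52, a small anchored glycoprotein abundant on lymphocytes, was at 3.21 and 3.64 CPM and 4.16 and 5.62 CPM (0.51, SE 0.20), and Crybg2 overlaps its exons on the opposite strand. Coro1a, an actin regulator of leukocytes with a short overlap with Bola2, was at 1.91 and 2.19 CPM and 2.30 and 2.99 CPM (0.37, SE 0.23). Aif1, the calcium-binding protein IBA1 of macrophages, was at 2.31 and 2.16 CPM and 2.16 and 3.16 CPM (0.25, SE 0.24). Mutant replicate 1 lay between the wild type libraries, and without mutant replicate 2 its log2 fold change was −0.05.

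Lgals3 and Gpnmb, genes of macrophages that gather around stored lipid and scars, had wide errors, and neither was past the threshold by edgeR, by DESeq2 or by limma-voom, or at an unadjusted p below 0.05. Lgals3, galectin-3, was at 1.78 and 3.17 CPM in the wild type and 2.77 and 4.36 CPM in the mutant libraries (0.53, SE 0.32), so that wild type replicate 2 exceeded mutant replicate 1. Its log2 fold change was 0.997 with wild type replicate 2 left out, and 0.17 with either mutant replicate 2 or wild type replicate 1 left out. Gpnmb (ENSMUSG00000029816, chr6:49036546-49070929, plus strand), a glycoprotein induced under lysosomal stress, was nearly absent, with 24 and 13 reads in the wild type and 8 and 9 reads in the mutant libraries. Its level was 0.289 and 0.18 CPM against 0.084 and 0.108 CPM in the mutant (−1.29, SE 0.72).

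**Figure D2:**
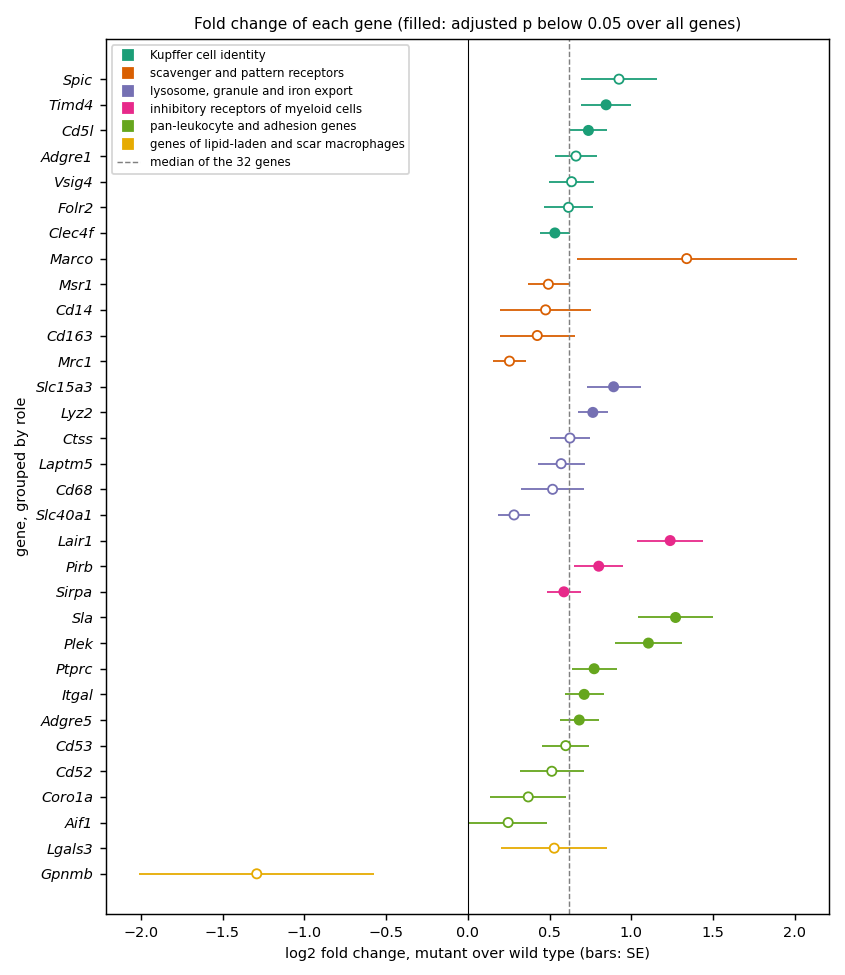
Log2 fold change, mutant over wild type, of each gene with its SE from edgeR, grouped by role; filled points are genes with an adjusted p below 0.05 over all genes and the dashed line is the median of 0.62. Of the points, 31 lie to the right of 0, and Gpnmb alone lies to the left. Those of Lair1, Sla, Plek and Marco lie beyond 1, with SEs of 0.20, 0.23, 0.21 and 0.67 beside a member median of 0.15.

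Per kilobase of exon, the order of the members differed from the order by CPM. Lyz2 was highest in wild type liver at 38.5 CPM per kb, followed by Cd5l at 31.7, Clec4f at 25.1, Vsig4 at 19.2, Ctss at 16.9 and Slc40a1 at 12.3 CPM per kb. The same 6 genes led in the same order in mutant liver, from 65.3 for Lyz2 to 14.99 CPM per kb for Slc40a1. At the other end, Ptprc, Lair1, Sla and Gpnmb held the last 4 places in both groups, at 0.344, 0.238, 0.165 and 0.036 CPM per kb in wild type liver. In all, 14 members kept their exact place, and the largest move was by 7 places, for Marco, from place 18 at 2.22 to place 11 at 5.62 CPM per kb. Lengths are those of all annotated exons, which for Ptprc sum to 18313 bases, so a gene with long untranslated or rarely used exons reads low on this scale.

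The libraries of a group also differed from each other. The members were chosen with the group differences known, and whether that choice bears on this spread was not tested. The median absolute log2 difference between the replicates was 0.17 in wild type and 0.21 in mutant liver over the members, and 0.16 and 0.17 over all tested genes. In wild type liver 20 of 32 members were higher in replicate 2 and 12 in replicate 1. In mutant liver 26 were higher in replicate 2 and 6 in replicate 1, with a median log2 ratio of 0.15, against 0.001 over all genes and a share of 50.2% above 0. The 6 genes lower in mutant replicate 2 were Marco, Cd163, Plek, Ptprc, Spic and Lair1. Marco and Cd163 stood apart there, with log2 ratios of replicate 2 over replicate 1 of −1.26 and −0.65, while Lgals3, Cd68 and Aif1 had 0.65, 0.62 and 0.54. Marco and Cd163 thus stood higher in the mutant library in which those 3 genes stood lower.

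**Figure D3:**
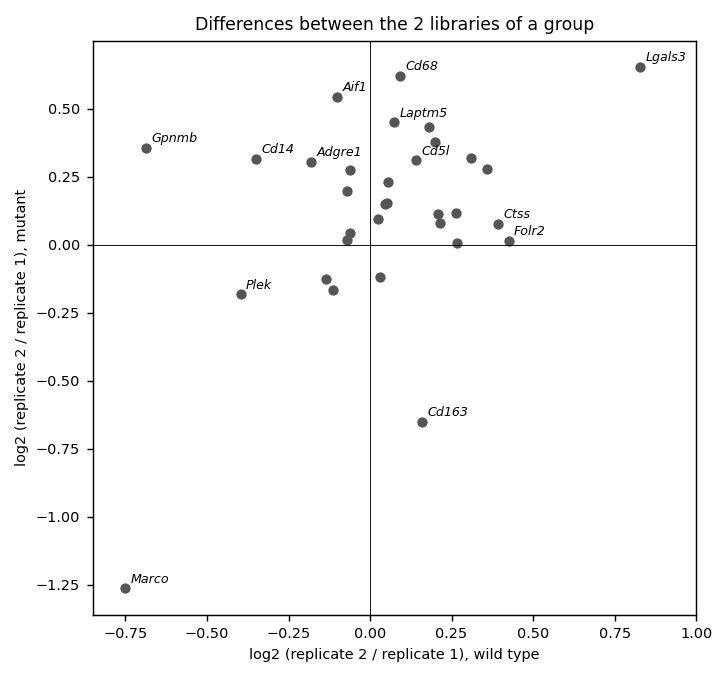
Log2 ratio of replicate 2 to replicate 1 in wild type (horizontal) and mutant liver (vertical), 1 point for each of the 32 genes. Most points lie above 0 on the vertical axis (26 of 32), and Marco (−0.75 and −1.26) and Lgals3 (0.83 and 0.65) are farthest from the centre.

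Other genes of macrophages, from lists written with earlier results of these libraries known, were compared in the same fit. Of 20 other macrophage genes, 4 rose past the threshold, among them Csf1r, Cybb and C1qb. All 20 had a positive log2 fold change, the groups did not overlap for any of them, and the median was 0.58. Over all tested genes 0.28% were called higher, 49.7% were positive and 17.0% had both mutant libraries above both wild type libraries. Because of how the lists were written, nothing is read from the counts of this list or the next. Csf1r, the receptor that keeps Kupffer cells alive, went from 40.2 ± 0.526 to 63.6 ± 3.71 CPM (SD, n = 2, log2 fold change 0.66, SE 0.09, edgeR adjusted p = 0.0109). Cybb, the catalytic chain of the phagocyte oxidase, went from 11.04 ± 0.509 to 18.9 ± 0.315 CPM (0.78, SE 0.11, edgeR adjusted p = 0.0109). C1qb, a chain of complement C1q, had 0.64 (SE 0.11, edgeR adjusted p = 0.0418). Spi1, which encodes PU.1 and was singled out after its values were seen, was at 2.53 and 2.82 CPM against 4.37 and 4.76 CPM in the mutant (0.77, edgeR adjusted p = 0.181). Among 16 other Kupffer cell genes, 14 were positive, the median was 0.39 and 1 rose past the threshold, Id3, a factor needed for Kupffer cells, from 11.7 ± 0.537 to 20.3 ± 0.0179 CPM (0.79, SE 0.11, edgeR adjusted p = 0.0109). Nr1h3, which encodes LXR alpha and was also singled out afterwards, had a log2 fold change of −0.05 and was not past the threshold. None of these 5 calls was kept with 1 library left out (edgeR adjusted p of 0.0717 to 0.437), and DESeq2 called 7 and 3 genes of the lists and limma-voom 0 of both.

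General lysosome genes, which hepatocytes also express, lay closer to 0. Of 20, 14 had a positive log2 fold change, the median was 0.04 and 0 were past the threshold by edgeR, by DESeq2 or by limma-voom (3 at an unadjusted p below 0.05). Lamp1 and Lamp2, the main lysosomal membrane proteins, were highest, with log2 fold changes of 0.09 and 0.04. For 14 iron handling genes the median was −0.01, with 7 on each side of 0, none past the threshold in the 3 tools and 0 at an unadjusted p below 0.05; the ferritin light chain gene Ftl1 and Cp, the plasma ferroxidase ceruloplasmin, had log2 fold changes of −0.03 and 0.12. The 10 genes of lipid-associated macrophages had 6 positive values and a median of 0.23, with 0 called by edgeR or limma-voom, 1 by DESeq2 and 2 at an unadjusted p below 0.05. The protease gene Ctsd and the lipoprotein lipase gene Lpl had the highest mean over the 4 libraries, with log2 fold changes of −0.04 and 0.71, and Lpl was at 21.9 and 21.4 CPM against 28.8 and 41.9 CPM in the mutant. In wild type liver alone Spp1, which encodes osteopontin, ranked above Lpl, and its log2 fold change was −0.03. Genes of recruited monocytes were low. Their sum over the 10 genes was 4.93 and 6.05 CPM in the wild type and 7.69 and 6.90 CPM in the mutant libraries, the median log2 fold change was 0.04 over 8 tested genes, and 0 were called by any of the tools (2 at an unadjusted p below 0.05). F13a1, named for the filter on low counts, passed it through the mutant libraries alone. It was at 0.0482 and 0.0277 CPM in the wild type and 0.252 and 0.167 CPM in the mutant libraries. Ccr2, the chemokine receptor of inflammatory monocytes, was at 0.687 and 0.692 CPM against 0.819 and 0.586 CPM in the mutant, and Plac8 at 2.51 and 2.57 CPM against 4.18 and 4.004 CPM.

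Markers of other cell types stood as follows in the same libraries. Sinusoidal endothelial markers summed to 284 and 300.2 CPM in the wild type and 294 and 292 CPM in the mutant libraries, with 3 of 11 positive and a median of −0.02, and Stab2 and Dnase1l3 had log2 fold changes of 0.12 and −0.02. Stellate and fibroblast markers (3 of 10 positive, median −0.07) and cholangiocyte markers (0 of 6 positive, median −0.06) had medians near 0. Hepatocyte markers had 4 of 9 positive and a median of −0.01. Their sum, led by albumin, was 103200 and 116600 CPM in the wild type and 101300 and 98450 CPM in the mutant libraries. Both mutant sums were thus below both wild type sums. Albumin had a log2 fold change of −0.198 (SE 0.105) and was not past the threshold. T and NK cell markers summed to 4.03 and 6.32 CPM in the wild type and 6.79 and 5.61 CPM in the mutant libraries, with 7 of 9 tested genes positive and a median of 0.82. Cd4 and Il2rb were the highest of them, with log2 fold changes of −0.05 and −0.10. Cd3g, a chain of the T cell receptor complex singled out after its values were seen, was at 0.0603 and 0.0692 CPM against 0.494 and 0.335 CPM in the mutant (edgeR adjusted p = 0.207). Cd8a, named for the filter, was at 0.0723 and 0.0277 CPM against 0.126 and 0.1315 CPM in the mutant. Both genes passed the filter on low counts through the mutant libraries alone. That favours positive values in the T and NK list, so nothing is read from its positive count or median. B and plasma cell markers had 4 of 7 positive and a median of 0.10, with sums of 4.83 and 6.53 CPM in the wild type and 6.37 and 4.996 CPM in the mutant libraries, and dendritic cell markers 3 of 5 positive and a median of 0.05, with sums of 7.95 and 8.10 CPM in the wild type and 8.24 and 7.03 CPM in the mutant libraries. Neutrophil markers summed to 2.68 and 3.44 CPM in the wild type and 4.13 and 3.84 CPM in the mutant libraries. Of the 8 listed, 3 were tested and all 3 were positive, with a median log2 fold change of 1.275. Csf3r, the most abundant of them, had 0.225 and overlapping groups. Among the untested genes, Ngp (from 0.179 to 0.0704 CPM) and Retnlg had lower means in mutant liver. Ly6g, Mpo and Camp, each at 0 in at least 1 library, had higher means there. Nothing is therefore read from the positive count or median of the neutrophil list. In these 8 lists 0 genes were past the threshold in any of the 3 tools, and at an unadjusted p below 0.05 they had, in the order given, 0, 1, 0, 0, 1, 2, 0 and 2. Erythroid markers had 5 of 5 tested genes positive, a median of 0.45 and 1 past the threshold, the beta globin gene Hbb-bt, whose close paralogs could share reads. Hbb-bt went from 9.14 ± 0.615 to 15.8 ± 0.483 CPM (SD, n = 2, edgeR adjusted p = 0.0146, and 0.137 to 0.223 with 1 library left out). The erythroid markers summed to 238 and 266 CPM in the wild type and 296 and 334 CPM in the mutant libraries. The neutrophil and erythroid sums were thus higher in both mutant libraries, as was the sum of the recruited monocyte genes. The T and NK sum was higher in mutant replicate 1 than in either wild type library. The B and plasma sum was not above wild type replicate 2 in either mutant library. The part of these cells in the values of the pan-leukocyte members was not tested.

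**Figure D4:**
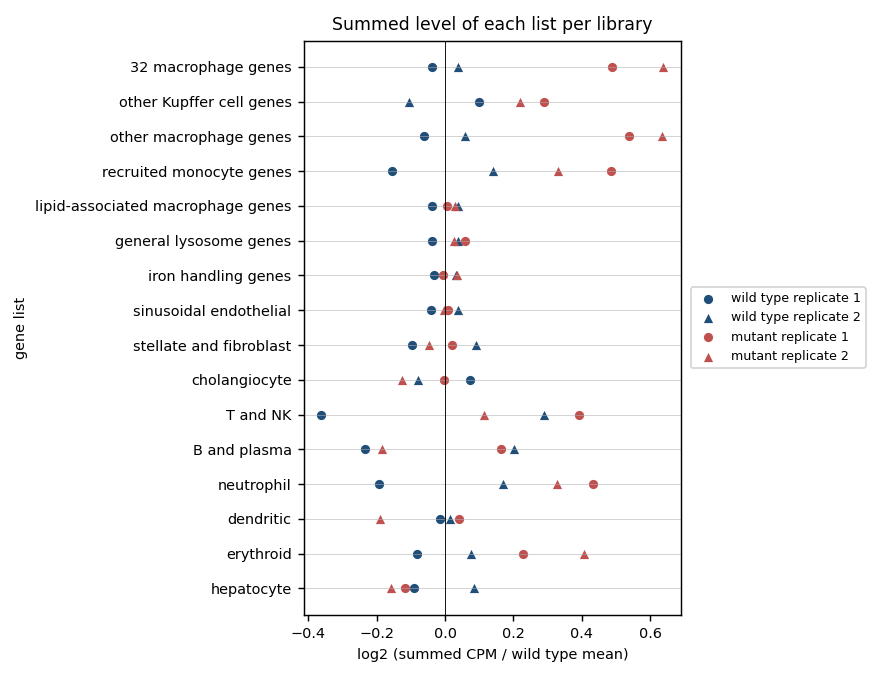
Summed CPM of each list in each library, as log2 of its ratio to the wild type mean of that list, with circles for replicate 1, triangles for replicate 2, blue for wild type and red for mutant. Both red points lie above 0.4 for the 32 genes and for the other macrophage genes, while endothelial, lysosome and iron lists stay within 0.1 of 0; sums are led by the most abundant genes of a list, such as C6 and Alas2.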

How the data were processed

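Mouse liver RNA was sequenced in 4 libraries, 2 wild type and 2 Foxo1 synonymous mutant. The values are raw counts per gene as deposited by the authors, 1 table per library with 37315 gene rows. Per the submitters' processing notes, TopHat2 2.1.1, HTSeq 0.6.0 and mm10 were used. How reads were counted (mode, strand, annotation) is not given in the sources used here. Rows were named through GENCODE M21 (35449 rows had a symbol).

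Genes were filtered with filterByExpr (count minimum 10), scaled by TMM and tested with edgeR 4.0.16 (quasi-likelihood, robust, R 4.3.3), the 4 libraries entering without covariates. Benjamini-Hochberg adjusted p below 0.05 over the 14657 genes tested is the threshold. The biological coefficient of variation was 13.1%. A count of 3 reads, the limit a count of 0 allows, is 0.0313 to 0.0408 CPM and covers counting error only. The code of the fit was tested on simulated data, which says nothing of the calls in these libraries. DESeq2 1.42.0, limma-voom (limma 3.58.1), other scalings and filters, no robust estimation, a replicate block and leaving out each library were alternatives. Levels between genes are CPM per kb of all annotated exons. Promoter windows are those of RefSeq (GRCm38.p6).

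The 32 members and all lists were chosen with earlier results of these data known. All members are named. From each other list the text names up to 3 genes past the threshold or, where there were none, the 2 of highest CPM, and exceptions are stated; 1 gene past the threshold and 1 promoter motif are not reported here. Libraries of a group may not be separate animals, so p-values measure only the spread between these libraries.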

Additional observations from a re-analysis of the deposited data

How the results depend on the processing

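The direction of the 32 members depended less on the processing than the number of calls did. Against 50 genes past the threshold, 13 of them members, there were 258 genes and 23 members with no filter on low counts, 24 and 4 where 1 CPM was required in 2 libraries (Gpnmb was then not tested), 8 and 1 without robust estimation, 7 and 1 in limma-voom, and 112 and 16 in DESeq2. With any 1 library left out there were 3 to 17 genes and 0 members in each fit, and the cause was not tested beyond the smaller number of libraries. The median log2 fold change of the members then ran from 0.57 to 0.72, and Aif1 ran from −0.051 without mutant replicate 2, a reversed direction, to 0.496 without mutant replicate 1. Of 383 values of single members under these alternatives, 279 kept direction and side of the threshold, 86 kept direction and lost the call, 17 gained it and 1 reversed.

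The labels number the libraries alike in both groups. With a replicate block there were 111 genes and 17 members past the threshold, among them all 13. Deviations of same-numbered libraries correlated at 0.004 over genes. A single correlation over all genes cannot exclude a shared preparation that touches some of them. Whether same-numbered libraries are paired is therefore not known. Gpnmb had 8 to 24 reads in a library, so depth limits it; for the other members counting error and the spread between libraries were not separated.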
